A study of Mus musculus with 12 samples.

Results

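The region described here is the telomeric side of the mouse HoxD gene cluster, the stretch beyond Hoxd1 that holds limb enhancers of the early and proximal limb. Its members are all called peaks that overlap chr2:74610000-75700000 on mm9, a window of 1.09 Mb, in 7 peak lists from chromatin immunoprecipitation and sequencing (ChIP-seq) of forelimb buds. There are 263 such peaks among 189536 in the whole series: 62 of HOXA13, 47 of HOXD13, 27 of H3K27ac in wild type and 64 in the mutant, and 42, 14 and 7 of H3K27me3 in E11.5 wild type, E11.5 mutant and E10.5. Position alone chose the peaks within the window, but the window itself was chosen with earlier results of these data known.

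The E11.5 libraries were made from the distal part of the forelimb bud, and each group consists of 1 library. Wild-type embryos were of mixed C57BL/6 and CD1 background and gave the HOXA13, HOXD13, H3K27ac and H3K27me3 profiles. Mutant embryos, of the same mixed background, were Hoxa13-/-;Hoxd13-/- and gave H3K27ac and H3K27me3. Their Hoxa13 allele has a neomycin cassette in the coding region, and their Hoxd13 allele has a lacZ reporter in its first exon. The E10.5 library came from CD1 forelimb buds, with a different antibody to H3K27me3. HOXA13 chromatin was fixed with an added cross-linker, disuccinimidyl glutarate, and the other chromatin with formaldehyde alone. The forearm itself was thus not profiled at E11.5, and the sources used here do not say whether embryos were pooled. Hoxd13 lies on chromosome 2, as does the window, so absence of both proteins and an insertion in cis cannot be told apart in the mutant.

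HoxD genes of the limb are driven by long-range enhancers on both sides of the cluster. Enhancers on the telomeric side act early and in the proximal limb, where the forearm forms, and those on the centromeric side act in the digits. In cells of the digits the telomeric side is known to lose activity and to acquire Polycomb marks. HOXA13 and HOXD13 are homeodomain factors of the distal bud. H3K27ac marks active enhancers and promoters, and H3K27me3 is the mark deposited by Polycomb repressive complex 2. In the RefSeq gene order, Hoxd1 is followed on this side by Mtx2, which encodes a mitochondrial membrane protein, then by Hnrnpa3 (an RNA-binding protein), Nfe2l2 (a transcription factor of the oxidative stress response) and Agps (an enzyme of ether lipid synthesis). The gene models at hand are of GRCm38 and not mm9, so no peak was assigned to a gene and no sequence was read from the genome. The cluster side was checked on the lists: the widest wild-type H3K27me3 peak in the 200 kb before the window, 125611 bp long, ended 4.54 kb before it.

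With 1 library a group there is no test between groups and no replicate check. Ranges in brackets after a share of the telomeric window are Wilson 95% intervals, for the counting error of peaks alone, and the share is set beside the same share over all autosomal peaks of the list. A second comparison is an equally long window on the other side of the cluster, chr2:73319999-74409999. The score of a peak, read as minus 10 times the log10 of the caller's p-value, is the authors' own value and serves only to describe or rank peaks within a list. Read depth is unknown. In bulk tissue, fewer cells with a mark and less of the mark per cell cannot be told apart.

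**Figure D1:**
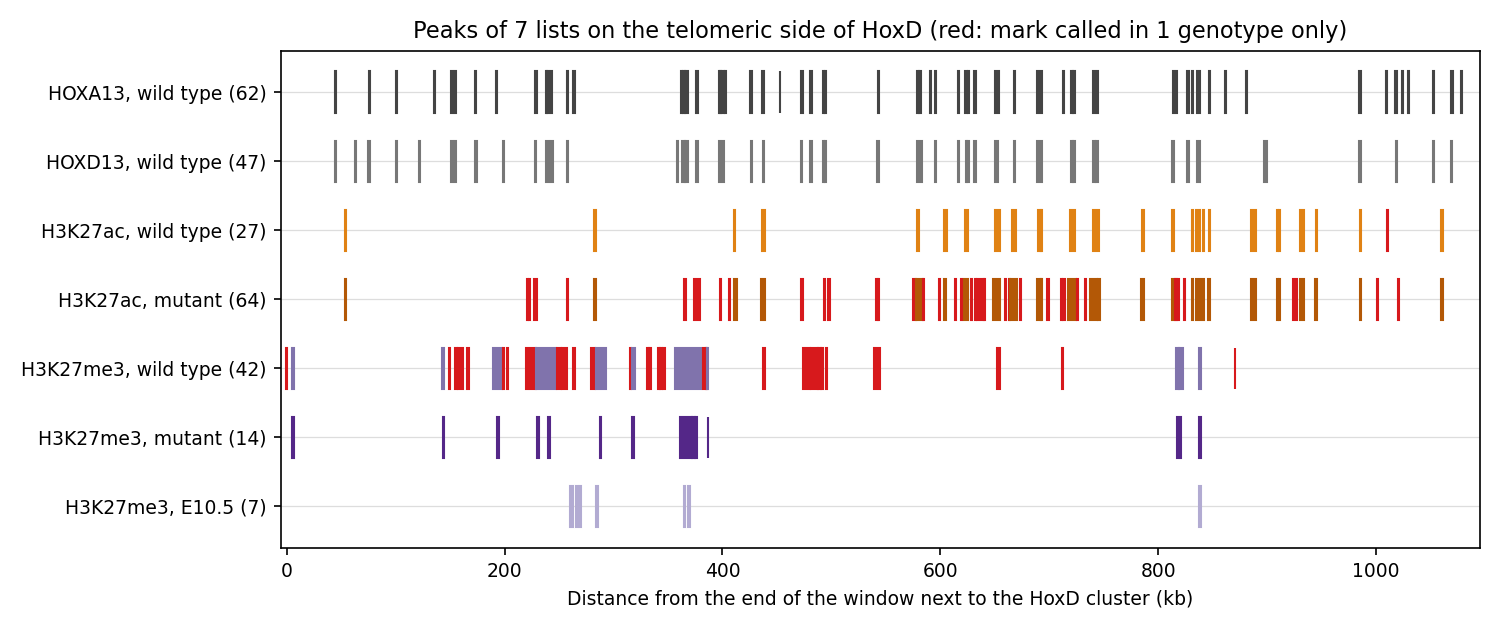
Called peaks of the 7 lists (rows, with the number of peaks) along the window, by distance in kb from its end next to the HoxD cluster; each bar is 1 peak, red where the mark was called in 1 genotype only. Red bars lie mainly in mutant H3K27ac (37 of 64) and wild-type H3K27me3 (31 of 42), and H3K27me3 lies mainly in the part nearer the cluster.

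Both factors bound the telomeric side densely. Merging overlapping HOXA13 and HOXD13 peaks gave 63 sites in the window, or 57.8 per Mb, against 13.5 per Mb over the autosomes and 62 sites in the window on the other side of the cluster. Peaks of both factors made up 41 sites, HOXA13 alone 17 and HOXD13 alone 5. Of HOXA13 peaks, 45 of 62 overlapped a HOXD13 peak (72.6%, 60.4 to 82.1%), against 64.0% on all autosomes. Of HOXD13 peaks, 42 of 47 overlapped a HOXA13 peak (89.4%, 77.4 to 95.4%), against 87.0%. Sharing in the window was therefore near the background of both lists. Shared peaks scored higher, as they did on the autosomes. The median HOXA13 score was 263 at shared and 75.3 at unshared peaks, against 201 and 75.3 on the autosomes. The median HOXD13 score was 212 and 76.8, against 156 and 69.7.

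The 5 highest HOXA13 peaks and the 5 highest HOXD13 peaks of the window lay at the same 5 places, which differed in the marks they overlapped. The highest, chr2:75090056-75091821, had a HOXA13 score of 3176 and a HOXD13 score of 2160. It overlapped the ends of 2 wild-type H3K27me3 peaks, chr2:75084040-75090412 and chr2:75091681-75097429, and most of it lay in the gap between them. It overlapped no H3K27ac peak in either genotype, and no H3K27me3 was called there in the mutant. The peak at chr2:75445045-75448092 (HOXA13 score 2415, HOXD13 score 1966) lay within H3K27ac in both genotypes. Only its far end overlapped H3K27me3, in both genotypes and at E10.5. The peak at chr2:74975692-74978118 (scores 2093 and 1847) lay in H3K27me3 in both genotypes, and H3K27ac was called there in the mutant only. At chr2:75298492-75302847 (scores 1961 and 1969) and chr2:75277140-75278666 (scores 1207 and 1400) H3K27ac was called in both genotypes and H3K27me3 in none. High binding scores were thus found at peaks that overlapped H3K27me3 alone, H3K27ac alone or both marks in wild type. An overlap can be partial and does not give the state of the whole peak. The site nearest the cluster, where HOXA13 scored 171 and HOXD13 133, began 43.9 kb into the window and had neither mark. The H3K27ac peak nearest the cluster began 53.2 kb into the window in wild type and 53.1 kb in the mutant. The nearest H3K27me3 peaks, with scores of 54.9 in wild type and 93.9 in the mutant, lay at the window's edge, and the nearest at E10.5 began 260 kb into it.

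H3K27ac was called over much more of the telomeric side in the mutant than in wild type. It covered 59.8 kb in 27 peaks in wild type and 136 kb in 64 peaks in the mutant, a ratio of mutant to wild type of 2.28 in length and 2.37 in number. Over the autosomes these ratios were 1.25 and 1.20, and in the window on the other side of the cluster the ratio of lengths was 0.506, from 130 kb to 65.7 kb. Of the covered bases, 57.0 kb were acetylated in both genotypes, 79.3 kb in the mutant only and 2.84 kb in wild type only. Almost all wild-type acetylation in the window was therefore still called in the mutant.

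Counted as peaks, 37 of 64 mutant H3K27ac peaks had no wild-type peak (57.8%, 45.6 to 69.1%), against a background of 30.4% of autosomal mutant peaks. In the opposite direction 1 of 27 wild-type peaks had no mutant peak (3.70%, 0.657 to 18.3%), against a background of 15.1%. That peak, chr2:75619557-75620530, had a score of 57.3, among the lowest wild-type scores of the window, and overlapped a HOXA13 peak with a score of 70.9. On the other side of the cluster 3 of 38 mutant peaks (7.89%, 2.72 to 20.8%) were called in the mutant only and 30 of 59 wild-type peaks (50.8%, 38.4 to 63.2%) in wild type only. The shares of the telomeric and the centromeric window thus lay on opposite sides of the background. For wild-type-only peaks the telomeric interval includes the background. The intervals treat neighbouring peaks as separate units and measure no spread between embryos, so the windows were not tested against each other. The mutant H3K27ac list is the longer one. With both lists reduced to the same number of autosomal peaks, 26 of 51 mutant peaks were called in the mutant only. Of wild-type peaks, 3 of 27 were called in wild type only. The autosomal shares were not recomputed with the reduced lists, so these counts have no background of their own.

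**Figure D2:**
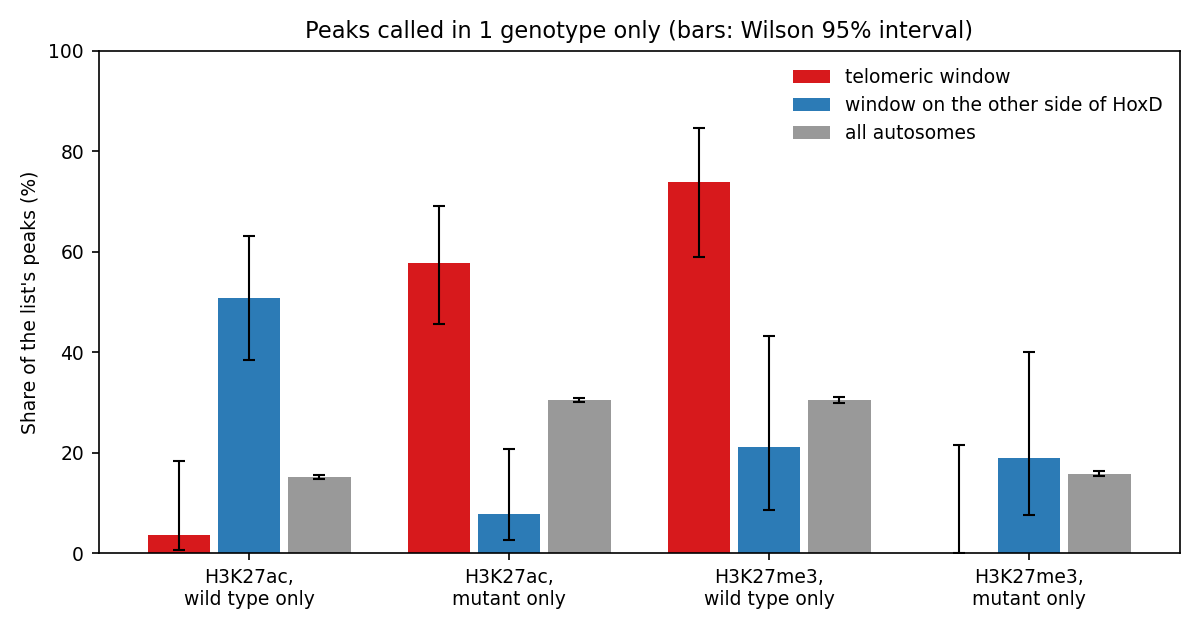
Share of a list's peaks called in 1 genotype only (y axis, percent), for H3K27ac and H3K27me3, in the telomeric window, in the equally long window on the other side of HoxD and on all autosomes; error bars are Wilson 95% intervals. The telomeric window lies at 57.8% for H3K27ac called in the mutant only and at 73.8% for H3K27me3 called in wild type only, above both comparisons.

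The mutant-only H3K27ac peaks were mostly narrow and of low score, with a few broad exceptions. Their median score was 92.8 and their median width 1208 bp, against 657 and 2345 bp for the 27 mutant peaks shared with wild type. Over the autosomes the mutant-only peaks had medians of 87.0 and 1030 bp. A score of 100 or more was reached by 18 of the 37 (48.6%, 33.4 to 64.1%), against 40.0% on the autosomes. The broadest and highest were chr2:74984036-74989106 (5071 bp, score 1838) and chr2:75243207-75249771 (6565 bp, score 1265), and these were the highest score and the greatest width of any mutant-only peak on the autosomes. The first lay at the far end of a wild-type H3K27me3 domain, where 2 mutant H3K27me3 peaks (best score 239) were also called, and overlapped a HOXA13 peak with a score of 203 and a HOXD13 peak with a score of 82.6. The other overlapped no factor peak and no H3K27me3, and the nearest HOX13 site lay 0.63 kb away.

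The remaining named mutant-only peaks scored between 201 and 337. The peak at chr2:74974947-74976484 (score 337) overlapped 2 HOXA13 and 2 HOXD13 peaks and H3K27me3 of both genotypes. A neighbouring pair, chr2:75425212-75426848 (score 288) and chr2:75426880-75428584 (score 269), shared a HOXA13 peak with a score of 96.9 and a wild-type H3K27me3 peak with a score of 1888. The first of this pair began just after a mutant H3K27ac peak shared with wild type, chr2:75422408-75425186. The peak at chr2:75322718-75324141 (score 239) overlapped a HOXA13 peak with a score of 56.2, and chr2:74837444-74839365 (score 201) overlapped both factors, with a HOXA13 score of 919 and a HOXD13 score of 689. At chr2:75307809-75309245 (score 313) neither a factor nor H3K27me3 was called.

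Acetylated regions present in both genotypes were mostly longer in the mutant, as were those of the autosomes. Merging overlapping H3K27ac peaks of both genotypes gave 64 regions, 26 of them called in both, and 22 of these 26 were longer in the mutant (84.6%, 66.5 to 93.8%), against 69.0% of autosomal regions. The median ratio of mutant to wild-type length was 1.13, against 1.08 over 25317 such autosomal regions, so the typical region was close to the background. A ratio above 1.5 was found for 8 of 26 regions (30.8%, 16.5 to 50.0%), against 13.0% of autosomal regions. A ratio below the inverse was found for none, which allows a share of up to 12.9%, against 3.76%. The greatest ratio, 3.92, belonged to the region at chr2:75187524-75193875, which covered 1619 bp in wild type and 6352 bp in the mutant and held a HOX13 site of 4793 bp. The median ratio was 1.41 for the 14 regions with a HOX13 site (0.799 to 3.92) and 1.12 for the 12 without (0.956 to 2.41), and these ranges overlap. The 3 wild-type peaks with the highest score, 3100, overlapped neither factor and differed little in length. Their regions covered 4466 bp and 4976 bp (chr2:75494862-75499837), 3860 bp and 3689 bp (chr2:75540043-75543902), and 1691 bp and 1789 bp (chr2:74663133-74664921) in wild type and mutant. The next highest peaks, chr2:75259944-75264433 (score 2827) and chr2:75275577-75279488 (score 1733), overlapped both factors, and their regions covered 4490 bp and 3912 bp in wild type and 6312 bp and 6028 bp in the mutant.

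**Figure D3:**
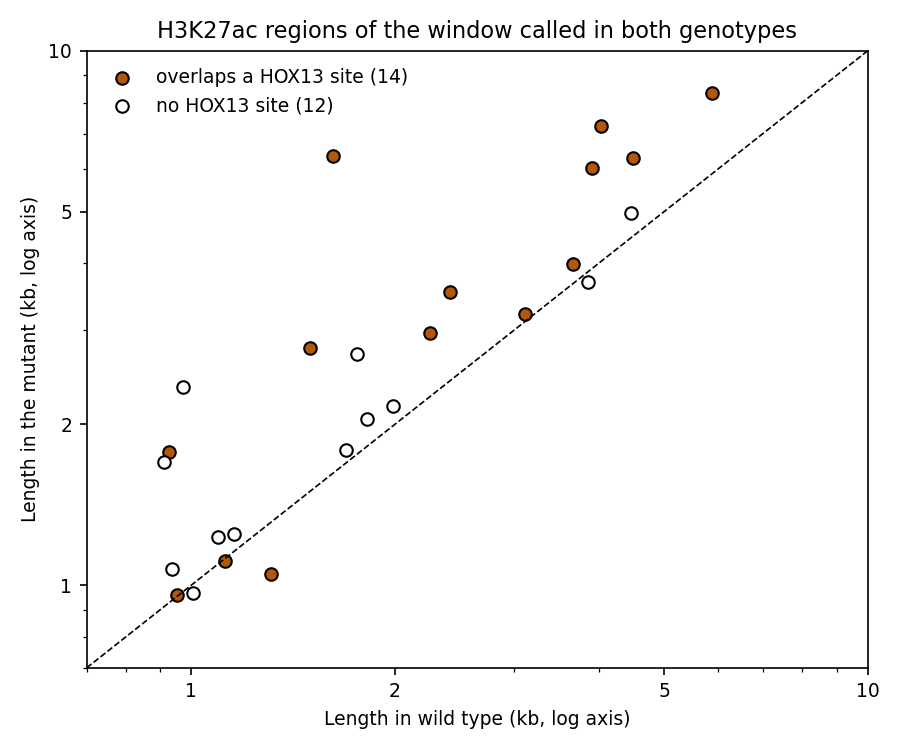
Length in kb of each of the 26 H3K27ac regions called in both genotypes, wild type on the x axis and mutant on the y axis (both log), with the line of equal length dashed and filled points for the 14 regions that overlap a HOX13 site. Points lie mostly above the line, 22 of 26 above it (84.6%, against 69.0% of autosomal regions), and the farthest has 1619 bp in wild type and 6352 bp in the mutant.

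Binding, mapped in wild type only, was found at 13 of the 37 mutant-only H3K27ac peaks (35.1%, 21.8 to 51.2%) and at 15 of the 27 shared ones (55.6%, 37.3 to 72.4%). Over the autosomes these shares were 13.0% and 36.5%. Binding in the window was thus more common in both classes, beside a density of sites that was also higher than on the autosomes. Of the 13 bound mutant-only peaks, 9 overlapped both factors, 3 HOXA13 only and 1 HOXD13 only. Of the 24 unbound ones, 17 lay within 5 kb of a site (70.8%, 50.8 to 85.1%), against 27.8% on the autosomes, and the median distance of all 37 to the nearest site was 1.37 kb, against 9.26 kb on the autosomes. Whether bound and unbound peaks differ in their dependence on the factors was not tested.

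H3K27me3 differed in the opposite direction. Wild-type peaks covered 149 kb of the window and mutant peaks 29.7 kb, so that the mutant had 0.200 of the wild-type length, against 0.807 over the autosomes and 0.884 in the window on the other side of the cluster. Of the 42 wild-type peaks 31 had no mutant peak (73.8%, 58.9 to 84.7%), against a background of 30.4% of autosomal wild-type peaks and 4 of 19 on the other side (21.1%, 8.51 to 43.3%). None of the 14 mutant peaks lacked a wild-type peak, which allows a share of up to 21.5%, against a background of 15.8%. Of the mutant signal only 0.193 kb lay outside wild-type H3K27me3. Mutant H3K27me3 of the window thus lay almost wholly inside the wild-type domains.

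Wild-type H3K27me3 peaks with no mutant peak included some of high score. Among the 13 wild-type peaks with a score of 1000 or more, 6 had no mutant peak (46.2%, 23.2 to 70.9%), against 2.34% of autosomal wild-type peaks with such a score. The highest of these were chr2:75091681-75097429 (5749 bp, score 2906), chr2:74862727-74867185 (score 2646), chr2:75148802-75155014 (score 2203), chr2:74833538-74838425 (score 1916) and chr2:74766856-74771913 (score 1101). The first 4 overlapped peaks of both factors and the last neither. Adjoining peaks were counted separately here. The peak at chr2:74833538-74838425 ended just before the domain at chr2:74838442-74856906, which kept mutant peaks. The peak at chr2:75091681-75097429 neighboured another of the 6, chr2:75084040-75090412. Over all wild-type-only H3K27me3 peaks of the window, 10 of 31 overlapped a factor (32.3%, 18.6 to 49.9%), and of those kept in the mutant 5 of 11 did (45.5%, 21.3 to 72.0%), against 11.8% and 18.4% on the autosomes. Of the 11 wild-type regions that overlapped a mutant peak, 10 were shorter than 1/1.5 of their wild-type length in the mutant, which is 90.9% (62.3 to 98.4%), against 22.4% of autosomal regions, and the median ratio was 0.491 against 0.863. The widest domain, chr2:74966030-74990060, was 24031 bp long in wild type, and 3 mutant peaks covered 14423 bp of it (0.600). It contained the highest mutant peak, chr2:74971106-74981895, with a score of 3127, and a smaller one at chr2:74982435-74985001 with a score of 239. The domain at chr2:74838442-74856906 was covered over 18465 bp in wild type and 4303 bp in the mutant, in 2 peaks with scores of 352 and 388, and that at chr2:74799484-74807957 over 8474 bp and 1522 bp, with a mutant score of 325. The exception was chr2:75447596-75448947, at the end of a HOX13 site that also overlapped H3K27ac, where the mutant peak was longer by a ratio of 1.14.

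The marks occupied different stretches of the window in wild type. From 0 to 545 kb, the part nearer the cluster, wild-type H3K27me3 covered 138 kb and H3K27ac 6.87 kb in 4 peaks. From 545 to 872 kb H3K27me3 covered 10.4 kb and H3K27ac 37.4 kb in 15 peaks, and from 872 to 1090 kb no H3K27me3 peak was called in any list. In the mutant the part nearer the cluster had 26.3 kb of H3K27me3 and 28.4 kb of H3K27ac, a ratio of H3K27ac lengths of 4.14. From 545 to 872 kb mutant H3K27ac covered 88.2 kb, a ratio of 2.36, and this stretch held 20 of the 37 mutant-only peaks, 17 of them between 545 and 763 kb. From 872 to 1090 kb the ratio was 1.26, close to that of the autosomes, with 15.5 kb in wild type and 19.6 kb in the mutant. The Polycomb-marked and the acetylated stretch thus adjoined each other in wild type, and the mutant differed in both. Only a division into 10 equal parts was planned, and the borders at 545 and 872 kb follow where the called marks change.

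**Figure D4:**
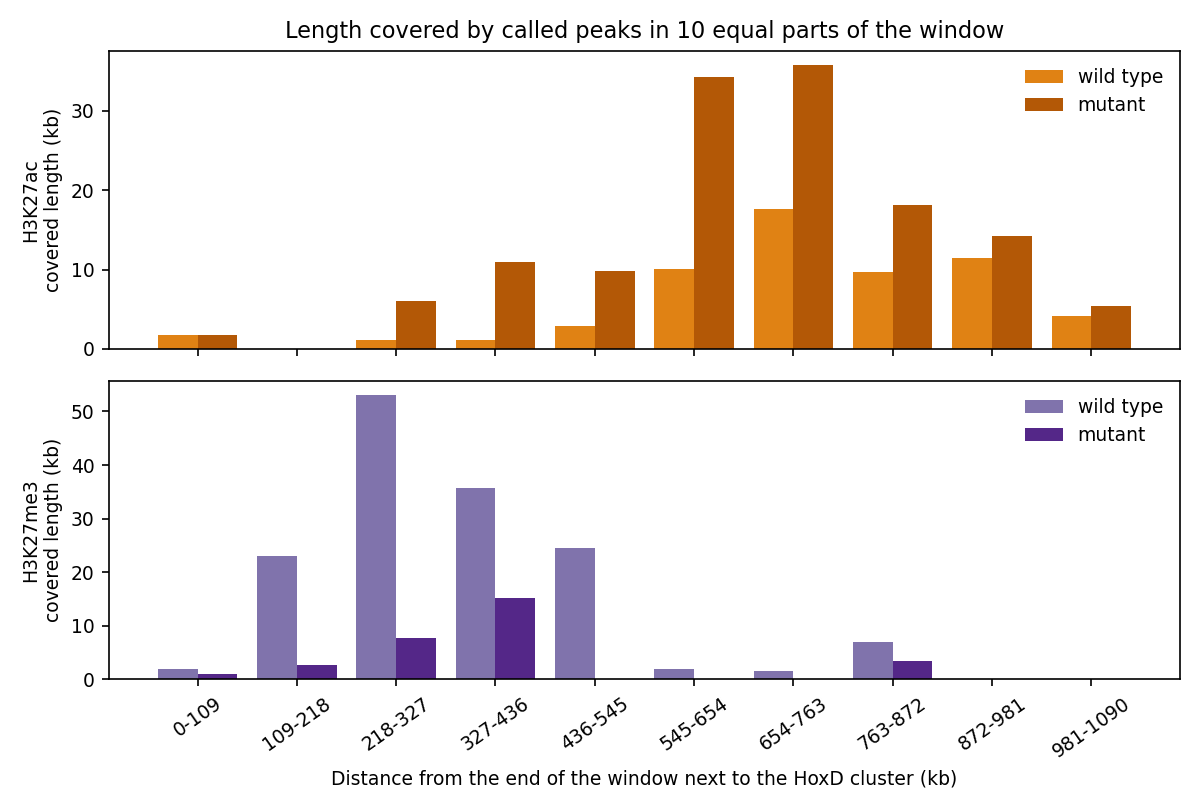
Length covered by called H3K27ac (top) and H3K27me3 (bottom) peaks, in kb, in 10 equal parts of the window ordered by distance from the HoxD cluster, for wild type and mutant. Wild-type H3K27me3 is highest at 218 to 327 kb (53.0 kb, against 7.62 kb in the mutant), mutant H3K27me3 at 327 to 436 kb (15.1 kb, against 35.8 kb in wild type), and H3K27ac at 654 to 763 kb (17.6 kb and 35.8 kb).

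Mutant H3K27ac and wild-type H3K27me3 shared only part of the window. Of the 149 kb of wild-type H3K27me3, 29.5 kb were also marked in the mutant and 19.8 kb lay under mutant H3K27ac, against 5.07 kb under wild-type H3K27ac. Most bases called for H3K27me3 in wild type only therefore carried no called H3K27ac in the mutant. Of the 79.3 kb of H3K27ac found in the mutant only, 14.7 kb lay in wild-type H3K27me3. In peaks, 9 of the 37 mutant-only H3K27ac peaks overlapped wild-type H3K27me3 (24.3%, 13.4 to 40.1%), against 15.1% on the autosomes, and 6 of them overlapped it in wild type but not in the mutant (16.2%, 7.65 to 31.1%), against 2.56%. Mutant-only H3K27ac peaks over a wild-type H3K27me3 peak that was itself absent from the mutant were chr2:74830909-74831834 (H3K27ac score 77.5), chr2:74837444-74839365 (score 201), chr2:75150509-75152277 (score 139), chr2:75152820-75154000 (score 138) and chr2:75320757-75321964 (score 81.2). Of these, the peak with a score of 139 overlapped HOXD13 alone, those with 201 and 138 overlapped both factors, and the other two neither.

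Seen from the binding sites, H3K27ac overlapped 16 of 63 sites in wild type (25.4%, 16.3 to 37.3%) and 27 in the mutant (42.9%, 31.4 to 55.1%). Over the autosomes it was 37.7% and 34.4%, and on the other side of the cluster it was 42 and 19 of 62 sites (67.7%, 55.4 to 78.0%, and 30.6%, 20.6 to 43.0%). Of the 47 telomeric sites with no H3K27ac in wild type, 12 had it in the mutant (25.5%, 15.3 to 39.5%), against 7.04% on the autosomes and 0 of 20 on the other side (up to 16.1%). Sites of both factors made up 10 of these 12 (83.3%, 55.2 to 95.3%), against 51.9% on the autosomes. Of the 16 sites with H3K27ac in wild type, 1 had none in the mutant (6.25%, 1.11 to 28.3%), against 20.3% on the autosomes. It was the site of the wild-type-only peak described above. H3K27me3 overlapped 19 sites in wild type (30.2%, 20.2 to 42.4%) and 7 in the mutant (11.1%, 5.49 to 21.2%), against 10.7% and 8.60% on the autosomes. In wild type the autosomal share thus lies just above the interval of the telomeric one for H3K27ac and below it for H3K27me3. Of the 19 sites with H3K27me3 in wild type, 12 had none in the mutant (63.2%, 41.0 to 80.9%). On the autosomes this share was 26.6%.

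Single sites fell into several combinations of states, and where no autosomal share stands beside a count, none was computed. Of 16 sites with H3K27me3 alone in wild type, 7 had neither mark in the mutant, 4 had both marks, 3 had H3K27ac alone and 2 kept H3K27me3 alone. In wild type 31 sites lacked both marks (49.2%, 37.3 to 61.2%), near the 55.8% of autosomal sites, and in the mutant 34 did (54.0%, 41.8 to 65.7%), near 60.4%. Of the 31, 5 had H3K27ac in the mutant (16.1%, 7.09 to 32.6%), against 6.45% on the autosomes, and 26 still lacked both. Of 13 sites with H3K27ac alone, 12 kept it alone, and of 3 with both marks 2 had H3K27ac alone in the mutant. From 0 to 545 kb 16 of 32 sites lay in wild-type H3K27me3 and 1 in H3K27ac. From 545 to 872 kb 3 and 13 of 21 sites did. These borders follow the marks themselves, so the counts give no separate evidence that position and state go together. The site at chr2:74837773-74839303, with a HOXA13 score of 919 and a HOXD13 score of 689, had H3K27me3 alone in wild type and H3K27ac alone in the mutant. The site at chr2:75436030-75437921, with scores of 800 and 813, had neither mark in either genotype. Both sites were chosen after their values were seen.

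H3K27me3 at E10.5 was called over a small part of the telomeric side. The 7 peaks covered 12.1 kb, their scores ran from 55.3 to 117, and 39 of 42 E11.5 wild-type peaks had no E10.5 peak (92.9%, 81.0 to 97.5%), against 50.2% on the autosomes. Of the 7, 3 were absent from E11.5 wild type (42.9%, 15.8 to 75.0%), against a background of 13.6%, and 4 were absent from the mutant (57.1%, 25.0 to 84.2%), against 19.5%. The 3 lay between chr2:74869973 and chr2:74879997, with an E11.5 wild-type H3K27me3 peak, chr2:74872772-74874442, among them. The other 4 overlapped wild-type E11.5 peaks, and 3 of them also overlapped mutant H3K27me3. When peaks within 1000 bp counted as overlapping, 2 of the 7 were absent from E11.5 wild type (28.6%, 8.22 to 64.1%). Stage, antibody, strain and dissected part differ together between E10.5 and E11.5 and cannot be told apart.

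Set against all 2257 autosomal windows of the same length laid end to end, the telomeric side took place 2 for the decrease in H3K27me3 covered length (-119 kb, median of all windows -2.57 kb). It took place 11 for the increase in H3K27ac length (76.4 kb, median 1.21 kb) and place 10 for the number of mutant-only H3K27ac peaks (37, median 2). Many windows hold few H3K27ac peaks. Among the 750 with 20 or more mutant H3K27ac peaks, it took place 12 for the mutant-only share (57.8%, median 31.1%). For wild-type-only H3K27ac peaks its count of 1 equalled the median. For HOX13 sites it took place 4, with 63 against a median of 13.0. These places describe the libraries and carry no p, and the window was chosen with earlier results of these data known. The mutant H3K27ac list is longer and the mutant H3K27me3 list covers less on the autosomes too, by the ratios given above. With the lists of each mark reduced to the same number of autosomal peaks, the window's length ratios were 2.08 for H3K27ac and 0.200 for H3K27me3. The places were not recomputed with the reduced lists, and the part of list length and coverage in them was not tested. Wild-type H3K27me3 has 9251 of its peaks outside the autosomes and mutant H3K27me3 385, which is why autosomal peaks serve as the background.

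**Figure D5:**
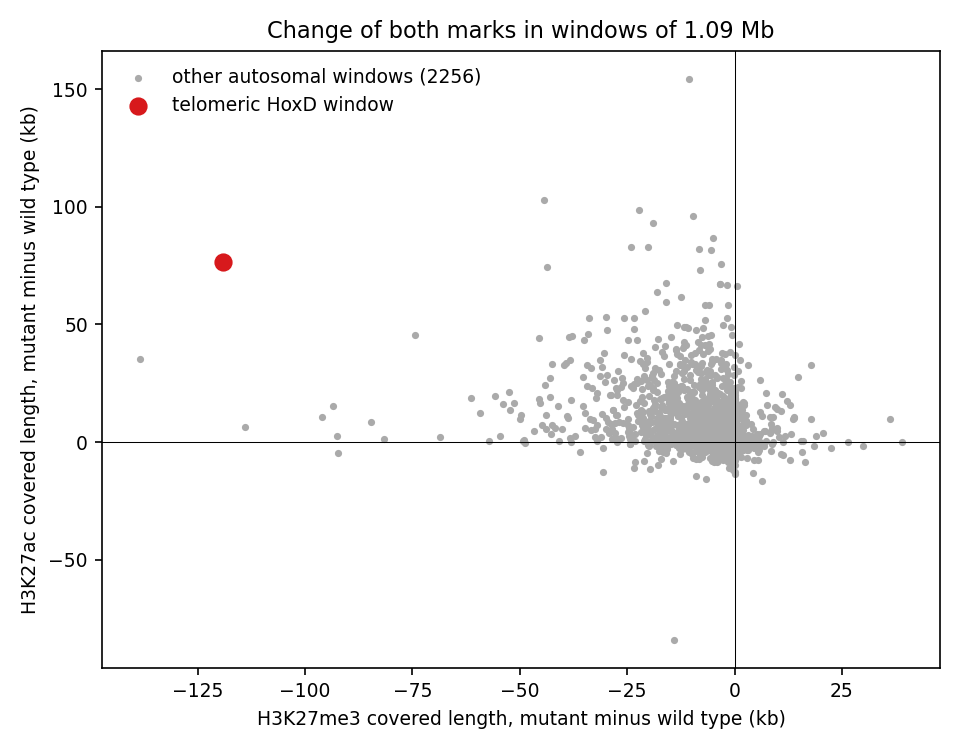
Change in covered length from wild type to mutant, mutant minus wild type in kb, of H3K27me3 (x axis) and H3K27ac (y axis) in 2257 autosomal windows of 1.09 Mb; the red point is the telomeric HoxD window. It lies at -119 kb and 76.4 kb, and no other window has both so large an H3K27me3 decrease and so large an H3K27ac increase.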

How the data were processed

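The data are 7 peak lists from 7 immunoprecipitated libraries, and the 5 input libraries have no list of their own. The submitters' processing notes name Bowtie 0.12.7, MACS 1.4 and the mouse build mm9. Each deposited list compares a library with input DNA. The input libraries are titled for H3K27ac of both genotypes, HOXA13, HOXD13 and E10.5 H3K27me3. None is titled for E11.5 H3K27me3 of either genotype, and the titles do not say which input served those lists. The deposited score, made by the authors' peak caller, is described with the results. It depends on depth and input, and many peaks tie at 3100, so it was not compared between lists. The lists hold no read counts. Each list holds 6 to 16 chromosome 1 peaks beyond the length that GRCm38 gives it, so that genome was not used for coordinates or sequence.

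Coordinates count from 1. Overlap means at least 1 bp. A HOX13 site is a merged set of overlapping HOXA13 and HOXD13 peaks. The comparison window has the same length and ends 200000 bp before the telomeric one. Shares have Wilson 95% intervals (scipy 1.17.1). Autosomal peaks gave the background. Overlap and length functions were tested on simulated intervals. Named regions are the highest-scoring peaks of each class (8 mutant-only H3K27ac; 5 each of H3K27ac in both, HOXA13, HOXD13, mutant H3K27me3 and wild-type-only H3K27me3), all wild-type-only H3K27ac peaks, mutant-only H3K27ac over wild-type-only H3K27me3, and the peaks nearest the cluster. The window, lists and rules were chosen with earlier results of these data known. The 7 alternatives are given in the closing section.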

Additional observations from a re-analysis of the deposited data

How the results depend on the processing

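Each of 16 values was recomputed under 7 settings. Of the 112 recomputed values, 106 stayed within the interval of the reported value or, for counts and ratios, within 1.5 times of it. Some of these could not move, since covered lengths do not depend on the overlap rule. Some intervals are wide, such as 15.8 to 75.0% for E10.5 peaks absent from E11.5 wild type. When peaks scoring under 100 were dropped from all lists, the mutant-only H3K27ac peaks numbered 23 in place of 37. Only 18 of the 37 reach that score, and the rest of the 23 are mutant peaks whose wild-type peak was dropped. With lists of equal length, wild-type-only H3K27ac peaks numbered 3 in place of 1, and 85.1% of HOXA13 peaks were shared. Joining peaks closer than 1000 bp left 18 wild-type-only H3K27me3 peaks in place of 31. The same joining left 26 of 50 mutant H3K27ac peaks called in the mutant only, in place of 37 of 64. Without the last 200000 bp of the window no wild-type-only H3K27ac peak remained (0 of 20, or 0%). Over all settings the mutant-only share of H3K27ac ran from 51.0 to 61.1%, the wild-type-only share of H3K27me3 from 62.1 to 81.2%, the ratio of H3K27ac lengths from 2.08 to 2.50 and that of H3K27me3 from 0.170 to 0.200, and no ratio changed direction. No paired analysis was possible because each group has 1 library. Depth is unknown, so a peak absent from a list was not detected there, which does not show that the mark is absent.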

Other observations

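Of the 37 mutant-only H3K27ac peaks of the telomeric side, none lay within 1 kb of a wild-type H3K27ac peak, which allows a share of up to 9.41%, while 1521 of 11393 autosomal mutant-only peaks did (13.4%). Within 5 kb the count was 13 of 37 (35.1%, 21.8 to 51.2%), near the 40.9% of the autosomes, and within 10 kb it was 25 of 37 (67.6%, 51.5 to 80.4%), against 57.5%. These distances were computed after the values were seen. They run to wild-type peaks, and some of the 37 adjoined a mutant H3K27ac peak that was shared with wild type.

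Of the 63 HOX13 sites, 26 (41.3%, 30.0 to 53.6%) overlapped none of the 5 lists of H3K27ac and H3K27me3, against 51.4% of autosomal sites.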
